A study of Homo sapiens with 6 samples.

Results

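Lysosomes are the acidic compartments in which a cell degrades proteins, glycans, lipids and nucleic acids. Their soluble hydrolases work at low pH, which the V-ATPase maintains by pumping protons across the membrane with its membrane-embedded V0 and cytosolic V1 parts. TFEB, TFE3 and MITF are related transcription factors that bind E-box motifs near the start of many lysosomal genes, and mTORC1 at the lysosome surface is known to hold TFEB and TFE3 in the cytosol.

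The genes described here are 40 named lysosomal genes and every measured gene whose symbol starts with ATP6V0 or ATP6V1, 61 of the 18132 genes in the table. They comprise 3 TFEB-type regulators, 7 membrane proteins, 2 soluble cofactors, 28 hydrolases and 21 V-ATPase subunits, and each had at least 1 probe set assigned to that gene alone. All 61 were measured and none was filtered out.

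The study hybridised RNA of T24 cells to Affymetrix expression arrays, 3 of control cells and 3 of cells exposed for 48 hours to 10 µg/ml MAP30. T24 is an established cell line from a human bladder carcinoma of urothelial origin, grown in DMEM with serum. MAP30, from bitter melon (Momordica charantia), inactivates ribosomes. The sources used here do not give what the control cells received. Both groups are 1 cell line, and no label says that the arrays of a group came from separate cultures, so the p-values reflect only how far these arrays differ from each other, which may be technical. The deposited values are centred on each probe set's median over the 6 arrays. They carry differences between arrays but no expression level, so no gene here can be called abundant or absent, levels of different genes cannot be compared, and fewer cells of a kind cannot be told apart from less RNA per cell. Values are given below on the log2 scale relative to the gene's own control mean, with a gene's value taken as the mean over its probe sets.

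V-ATPase genes were mostly higher with MAP30 and lysosomal hydrolase genes mostly lower. Of 21 V-ATPase genes 14 rose and 3 fell, with a median log2 fold change of 0.55. Of 28 hydrolase genes 9 rose and 17 fell, with a median of -0.27. The 7 membrane protein genes held 2 that rose and 4 that fell, and here the median (-0.18) and the mean (0.12) had opposite signs. TFE3 and MITF rose, and TFEB did not pass. By limma with Benjamini-Hochberg adjustment over all 18132 genes, 26.9% of genes passed as higher and 30.6% as lower at an adjusted p below 0.05, with a median log2 fold change of -0.02. Against these shares 66.7% of V-ATPase genes were higher and 60.7% of hydrolase genes lower. Of the membrane protein genes 28.6% were higher, near the share of all genes, and 57.1% lower.

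Across all 61 genes 27 were higher, 25 lower and 9 did not pass. Changes of at least 2-fold were found in 7 upward and 6 downward, where 5.42% and 4.13% of all genes changed that far. All 3 MAP30 arrays lay above all 3 control arrays in 28 genes and below them in 25, beside 29.1% and 33.6% of all genes. The SD over the 3 arrays of a group ran from 0.005 to 0.17 among the 61 genes and exceeded 0.1 in 7 of them.

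**Figure D1:**
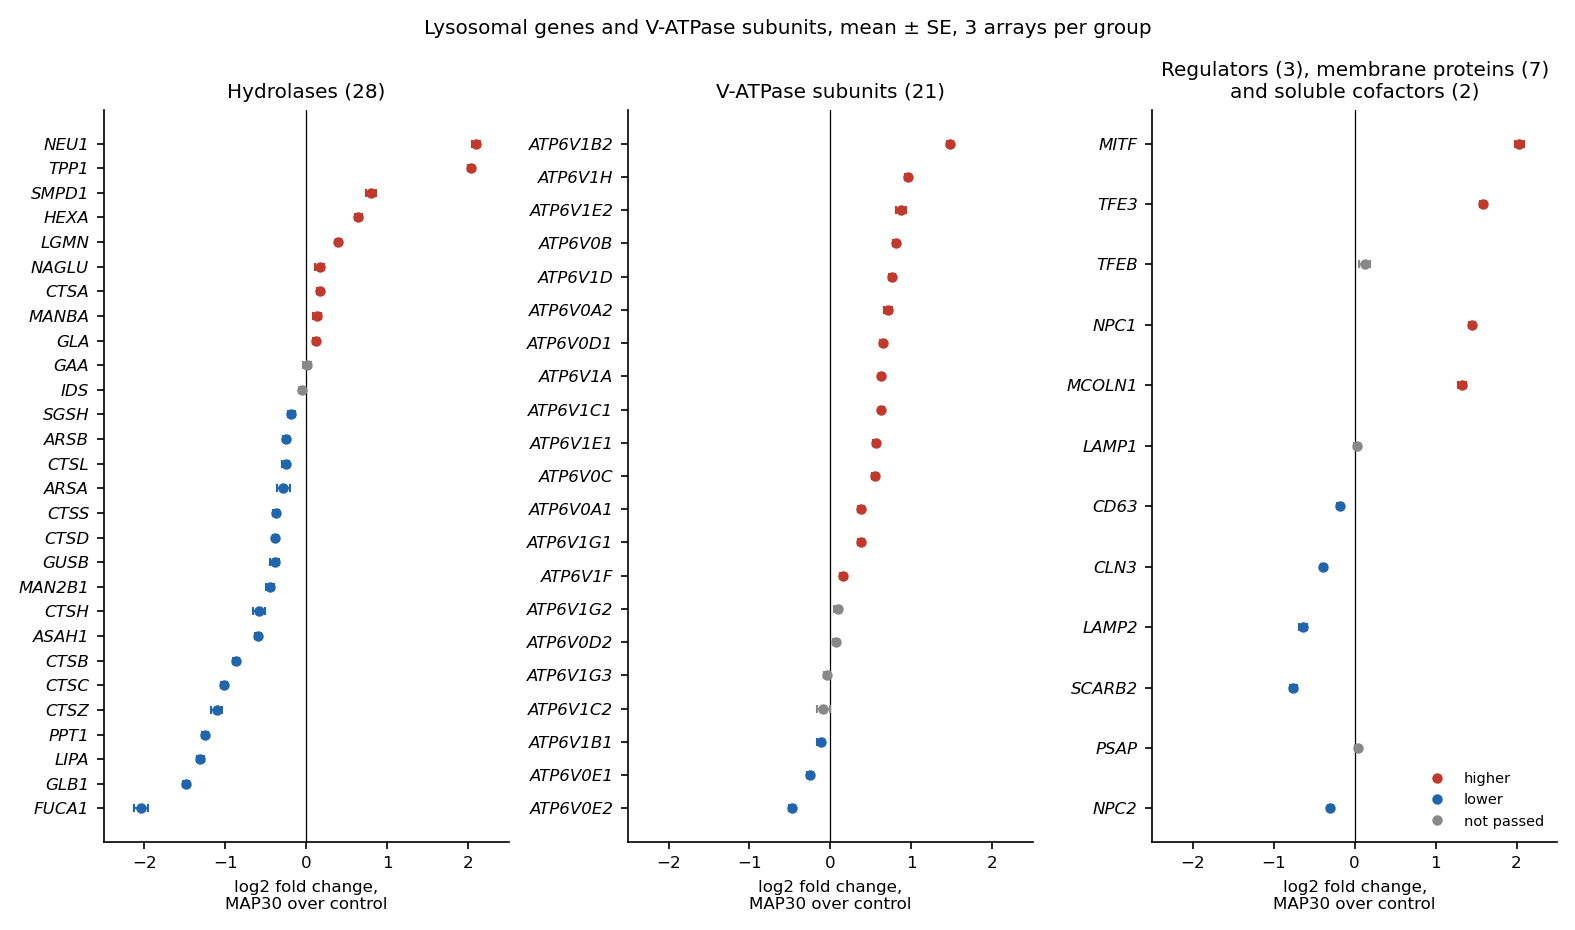
Log2 fold change of MAP30 over control (x axis, mean ± SE, 3 arrays per group) for each of the 61 genes, by class; red points passed as higher, blue as lower and grey did not pass. V-ATPase genes lie mostly right of 0, up to ATP6V1B2 at 1.48, while hydrolase genes spread from FUCA1 at -2.04 to NEU1 at 2.10.

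The counts moved with the scaling of the arrays. Spiked-in controls of the hybridization step were higher on the MAP30 arrays by a mean of 0.21 over 18 probe sets, whereas spiked-in poly-A RNA controls were lower, at -0.16 over 24. After the arrays were centred on the hybridization controls, 17.0% of all genes were higher and 63.7% lower. V-ATPase genes were then 13 higher and 5 lower, and hydrolase genes 5 higher and 19 lower, a share of 67.9% that is near the background. With poly-A centring, 49.1% of all genes were higher and 20.7% lower, V-ATPase genes were 17 higher and 1 lower, and hydrolase genes 11 higher and 13 lower. Membrane protein genes were 2 higher and 5 lower (71.4%, beside 63.7% of all genes) with hybridization-control centring. With poly-A centring they were 3 higher and 3 lower. The medians of these 2 classes kept their signs under both centrings, at 0.34 and 0.72 for V-ATPase genes and -0.48 and -0.10 for hydrolase genes. Each centring shifts all genes alike, and the median of all genes moved to -0.23 and 0.14. The distance of a class from all genes could therefore not change. The log2 ratio of 3' over 5' control probe sets of ACTB was higher with MAP30 by 0.16 and that of GAPDH by 0.04, with the same grouping as every comparison here; its part in these results was not tested.

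**Figure D2:**
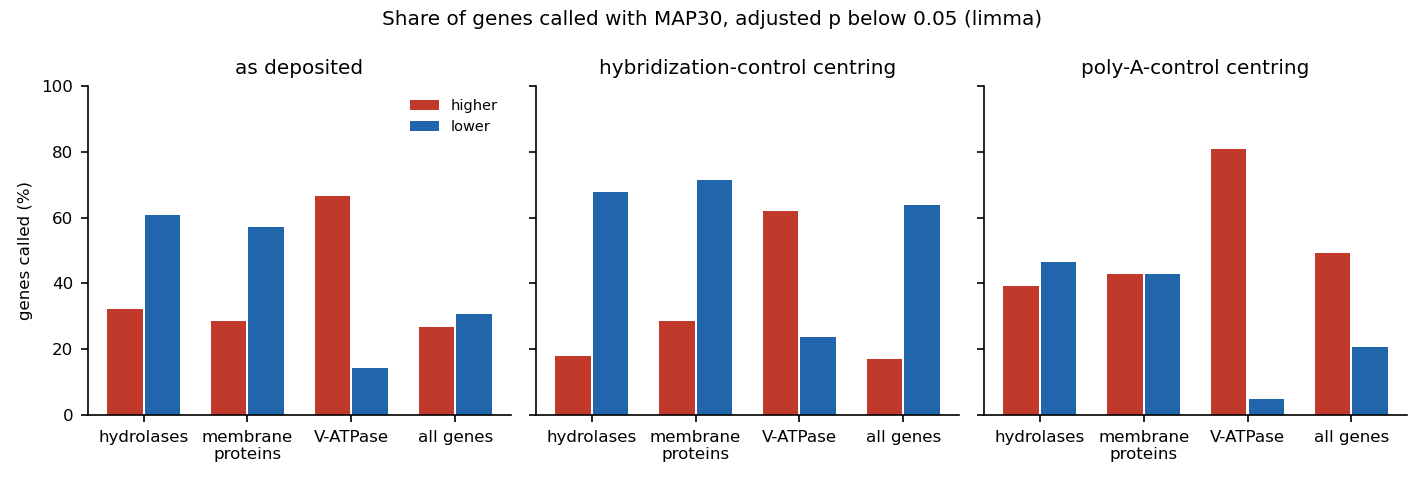
Share of genes called higher (red) or lower (blue) at an adjusted p below 0.05, in percent, for hydrolases, membrane proteins, V-ATPase subunits and all 18132 genes, under 3 scalings of the arrays. The higher share of V-ATPase genes exceeds that of all genes in each panel, whereas the lower share of hydrolases is near that of all genes with hybridization-control centring (67.9% against 63.7%).

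Among the regulators, MITF, best known as the master factor of pigment cells, changed most. Its control arrays stood at -0.09, 0.02 and 0.07 and its MAP30 arrays at 1.97, 2.11 and 2.02. The groups were far apart, a 4.09-fold rise (log2 fold change 2.03 ± 0.05 SE, n = 3 per group, adjusted p = 6.9e-08). TFE3, a broadly expressed relative that also drives lysosomal genes, read 0.03, 0.03 and -0.05 in control and 1.56, 1.60 and 1.59 with MAP30, 3.00-fold higher (1.58 ± 0.04 SE, adjusted p = 4.24e-08). TFEB stood at 0.03, -0.11 and 0.07 against 0.18, 0.01 and 0.17, so its groups overlapped (0.12 ± 0.07 SE, adjusted p = 0.155). TFEB stood at -0.086 without passing when centred on hybridization controls, and passed as higher at 0.29 with poly-A centring and at 0.18 without MAP30 replicate 2. Both probe sets of MITF (1.76 and 2.31) and of TFE3 (1.51 and 1.65) rose, where 26.5% of all probe sets passed as higher and 30.3% as lower. Of the 195 probe sets of the 61 genes 86 were higher and 72 lower. TYR, TYRP1, PMEL, MLANA and OCA2 are pigment cell genes downstream of or expressed with MITF in melanocytes. Of these 5, 0 passed in the limma fit as deposited, and 0 had an unadjusted p below 0.05. With hybridization-control centring 4 were lower, where 63.7% of all genes were. With poly-A centring 1 was higher, where 49.1% of all genes were.

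**Figure D3:**
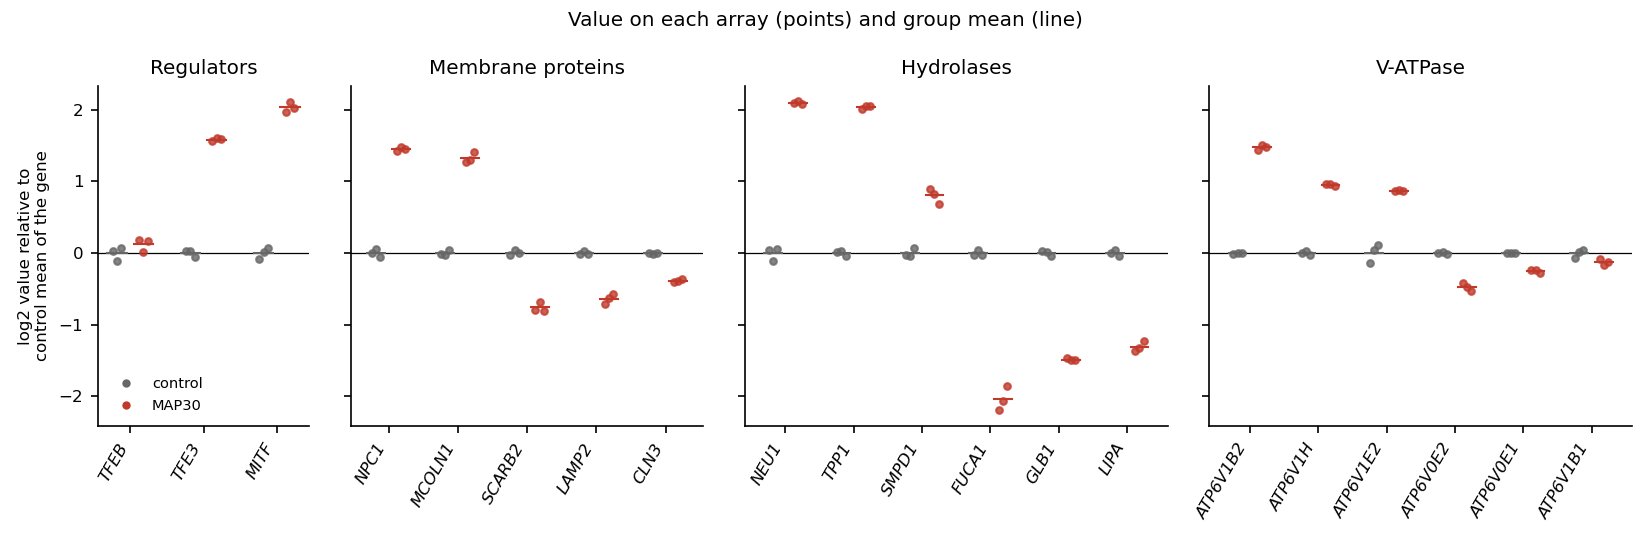
Value of each array (points) and group mean (lines) for 20 genes, in log2 units relative to the gene's control mean; grey is control and red MAP30. The groups are apart in every gene shown except TFEB, whose MAP30 arrays, at 0.01 to 0.18, overlap the control arrays, at -0.11 to 0.07. In ATP6V1B1 they nearly touch, with MAP30 arrays at -0.16 to -0.08 and control arrays at -0.06 to 0.05.

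The E-box CACGTG and its palindromic extension TCACGTGA, the core of the element through which TFEB-type factors are known to act, were searched in the RefSeq promoters (GRCh38.p14; 250 bases before to 50 after each annotated start). Both strands were read, each TCACGTGA also counts as a CACGTG, and a gene with several annotated starts counted once if any of them held the motif. A promoter was found for 43 of the 61 genes. Of these 13 (30.2%) held CACGTG and 7 (16.3%) held TCACGTGA, beside 8.77% and 1.18% of the 27305 genes in the table. The 7 genes with TCACGTGA were LAMP1, MCOLN1, CLN3, CTSA, GAA, ATP6V0D1 and ATP6V1G1. Their windows are given here, with those of NEU1 and ATP6V0B, which held only the shorter motif, to set their sites beside their responses. The other genes with only the shorter motif, CD63, CTSD, ARSB and ATP6V0E2, all fell, whereas NEU1 and ATP6V0B rose. Windows hold the 150 bases before the start (200 for LAMP1), 5′ to 3′ on the strand of the gene, with CACGTG or TCACGTGA in capitals. Their positions are chr13:113297039-113297238, plus strand, for LAMP1; chr19:7522474-7522623, plus strand, for MCOLN1; chr16:28492083-28492232, minus strand, for CLN3. The others are chr20:45891185-45891334, plus strand, for CTSA; chr17:80101431-80101580, plus strand, for GAA. For the subunits and NEU1 they are chr16:67481158-67481307, minus strand, for ATP6V0D1; chr9:114587619-114587768, plus strand, for ATP6V1G1; chr6:31862822-31862971, minus strand, for NEU1. The ATP6V0B window is chr1:43974810-43974959, plus strand.
LAMP1: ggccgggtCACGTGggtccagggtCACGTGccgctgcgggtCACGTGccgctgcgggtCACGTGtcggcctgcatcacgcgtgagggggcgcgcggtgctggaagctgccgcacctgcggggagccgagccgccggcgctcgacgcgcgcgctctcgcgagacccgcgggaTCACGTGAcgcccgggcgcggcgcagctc
MCOLN1: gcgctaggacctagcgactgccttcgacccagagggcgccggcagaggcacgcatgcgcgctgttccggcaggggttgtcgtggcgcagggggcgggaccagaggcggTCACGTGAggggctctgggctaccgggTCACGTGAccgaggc
CLN3: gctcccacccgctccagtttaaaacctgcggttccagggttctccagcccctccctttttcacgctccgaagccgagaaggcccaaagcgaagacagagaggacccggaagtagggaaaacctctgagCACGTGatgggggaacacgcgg
CTSA: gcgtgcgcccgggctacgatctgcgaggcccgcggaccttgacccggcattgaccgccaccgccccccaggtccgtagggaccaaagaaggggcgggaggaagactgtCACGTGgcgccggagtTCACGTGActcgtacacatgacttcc
GAA: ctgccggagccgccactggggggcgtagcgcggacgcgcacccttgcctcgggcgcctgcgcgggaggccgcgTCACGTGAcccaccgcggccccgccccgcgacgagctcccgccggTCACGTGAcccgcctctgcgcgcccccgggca
ATP6V0D1: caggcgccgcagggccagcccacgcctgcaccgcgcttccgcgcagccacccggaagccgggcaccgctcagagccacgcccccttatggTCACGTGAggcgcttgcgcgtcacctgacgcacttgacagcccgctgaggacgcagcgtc
ATP6V1G1: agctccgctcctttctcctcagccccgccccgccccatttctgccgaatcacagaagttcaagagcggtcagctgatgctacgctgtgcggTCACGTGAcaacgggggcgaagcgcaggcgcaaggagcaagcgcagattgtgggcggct
NEU1: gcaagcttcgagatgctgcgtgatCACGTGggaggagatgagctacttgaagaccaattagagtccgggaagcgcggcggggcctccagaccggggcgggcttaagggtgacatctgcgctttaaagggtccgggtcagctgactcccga
ATP6V0B: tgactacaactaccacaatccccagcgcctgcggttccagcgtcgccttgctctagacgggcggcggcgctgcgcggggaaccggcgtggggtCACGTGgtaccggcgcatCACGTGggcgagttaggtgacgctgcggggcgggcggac

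The same letters stood before genes that responded in different ways. The LAMP1 promoter held 6 CACGTG, more than any other window shown, 5 of them before the start; its log2 fold change was 0.03 and did not pass. MCOLN1 and GAA each held 2 TCACGTGA in the window; MCOLN1 rose by 1.33, and GAA, at 0.01, did not pass. The CLN3 promoter held 1 CACGTG before the start shown and a TCACGTGA after it, and CLN3 fell by 0.39. ATP6V0D1 (0.64), ATP6V1G1 (0.38) and CTSA (0.17) rose. Of the 13 genes with CACGTG 6 were higher, 5 lower and 2 did not pass. Of the 30 without it 12 were higher, 13 lower and 5 did not pass. Of the 7 genes with TCACGTGA 4 were higher, 1 lower and 2 did not pass (median 0.17). Of the 36 without it 14 were higher, 17 lower and 5 did not pass (median -0.07). All genes were 26.9% higher and 30.6% lower, and whether the motif and the calls are related was not tested. The related sequence TCATGTGA was found in 4 genes (9.3%, beside 1.24% of the table): TPP1 (2.03) and ATP6V0C (0.55), which rose, and PPT1 (-1.25) and CD63 (-0.18), which fell. The promoters of TFE3, TFEB and MITF held none of these letters. A match is a description of these windows and not of binding.

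The lysosomal membrane proteins divided into 2 strong rises and several moderate falls. NPC1, which exports cholesterol from the lysosome, read 0.00, 0.06 and -0.06 in control and 1.42, 1.48 and 1.45 with MAP30. MCOLN1, the calcium channel TRPML1, read -0.01, -0.03 and 0.04 against 1.27, 1.31 and 1.42. No array of 1 group came near the other in either gene, and both rose over 2-fold (NPC1 by 1.45 ± 0.04 SE and MCOLN1 by 1.33 ± 0.05 SE, adjusted p = 8.92e-08 and 2.37e-07). The probe sets of MCOLN1 differed in size, at 0.76 and 1.90.

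SCARB2, a receptor in enzyme delivery to lysosomes, read -0.03, 0.04 and 0.00 in control and -0.79, -0.68 and -0.81 with MAP30, a 1.69-fold fall (adjusted p = 2.88e-06). LAMP2, a main glycoprotein of the membrane with a role in chaperone-mediated autophagy, read -0.02, 0.03 and -0.02 against -0.72, -0.62 and -0.58 (1.56-fold lower, adjusted p = 7.27e-06). CLN3, mutated in juvenile neuronal ceroid lipofuscinosis, read 0.00, -0.01 and 0.01 against -0.40, -0.40 and -0.37 (adjusted p = 1.76e-05). In each of these the groups were apart. The tetraspanin CD63 fell by 0.18, a call lost with poly-A centring at -0.02. LAMP1, the other main glycoprotein, stood at 0.03, turned to -0.18 as lower with hybridization-control centring and to 0.19 as higher with poly-A centring.

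The fall of LAMP2 was not shared by all its probe sets. Of its 9 probe sets 6 were lower, from -1.50 to -0.15, and 3 did not pass, at 0.00, 0.03 and 0.11. The arrays give no map from these probe sets to the LAMP2 splice forms in the sources used here.

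Of the 2 soluble cofactors NPC2 fell and PSAP did not pass. NPC2, which hands cholesterol to NPC1, read 0.01, 0.02 and -0.02 in control and -0.27, -0.31 and -0.32 with MAP30, a fall of 1.23-fold (adjusted p = 0.000134), carried by 2 of its 4 probe sets (-0.72 and -0.66; the others at 0.02 and 0.16). NPC1 and NPC2, which act in 1 pathway, thus lay on opposite sides of 0. PSAP, the precursor of the saposin activators, was at 0.04 and did not pass although its 3 MAP30 arrays lay just above its control arrays; it passed as lower at -0.17 with hybridization-control and as higher at 0.20 with poly-A centring.

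The proteases held both large falls and 1 large rise. TPP1, a peptidase that removes tripeptides, read 0.01, 0.03 and -0.04 in control and 2.01, 2.05 and 2.05 with MAP30, 4.10-fold higher (2.03 ± 0.04 SE, adjusted p = 1.38e-08), and all 9 of its probe sets rose, by 1.57 to 2.80. LGMN, an asparagine-specific endopeptidase that processes cathepsins, rose by 0.40 with all 6 probe sets higher. CTSA, a carboxypeptidase that stabilises NEU1 and GLB1, rose by 0.17, but stood at -0.04 without passing when centred on hybridization controls. The other 7 cathepsin genes fell: CTSZ (-1.11), CTSC (-1.01), CTSB (-0.87), CTSH (-0.58), CTSD (-0.38), CTSS (-0.37) and CTSL (-0.25). CTSC processes granule proteases, CTSD is the main aspartic protease of the lysosome, and CTSB and CTSL are its most studied cysteine proteases. Hybridization-control centring left all 7 lower and poly-A centring 6 of them, CTSL then standing at -0.09. CTSB had 1 probe set at -1.94 and 3 between -0.53 and -0.47, so that the median over its probe sets was -0.53. The falls of CTSH and CTSS each came from 1 of 2 probe sets, at -1.12 for CTSH (the other at -0.05) and at -0.71 for CTSS (the other at -0.03).

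The glycosidases had the widest range. NEU1, the sialidase that trims sialic acid from glycoproteins, read 0.05, -0.11 and 0.06 in control and 2.09, 2.12 and 2.09 with MAP30, 4.28-fold higher (2.10 ± 0.05 SE, 1 probe set, adjusted p = 4.95e-08). FUCA1, the fucosidase, read -0.02, 0.05 and -0.03 against -2.20, -2.07 and -1.86, 4.11-fold lower (-2.04 ± 0.08 SE, adjusted p = 3.88e-07). GLB1, the beta-galactosidase assayed as a marker of senescent cells, read 0.02, 0.02 and -0.04 against -1.47, -1.49 and -1.50, 2.80-fold lower (-1.49 ± 0.03 SE, adjusted p = 3.94e-08). In these 3 genes every MAP30 array lay more than 1 log2 unit from every control array. NEU1, GLB1 and CTSA encode the enzymes of 1 lysosomal complex, and their log2 fold changes were 2.10, -1.49 and 0.17.

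HEXA, which takes part in the breakdown of GM2 ganglioside, rose by 0.65 with 7 of 8 probe sets higher. MAN2B1 (-0.45), an alpha-mannosidase, and GUSB (-0.39), the beta-glucuronidase, fell, each on 1 probe set. NAGLU (0.17), MANBA (0.13) and GLA (0.12) passed narrowly as higher, with adjusted p of 0.0351, 0.0448 and 0.0218. None of these 3 passed with hybridization-control centring (-0.04, -0.08 and -0.09). Each lost its call when control replicate 3, MAP30 replicate 2 or MAP30 replicate 3 was left out, at 0.11, 0.12 and 0.11 for GLA, 0.15, 0.12 and 0.11 for MANBA, and 0.14, 0.15 and 0.14 for NAGLU. GLA (0.12) and MANBA (0.14) also lost it without control replicate 2, and MANBA (0.11) and NAGLU (0.17) without control replicate 1. The arrays of NAGLU overlapped between the groups. GLA, the alpha-galactosidase, read 0.03, 0.00 and -0.02 in control and 0.08, 0.13 and 0.16 with MAP30, but its probe sets opposed each other: 2 were higher (0.34 and 0.36) and 1 lower (-0.33). With _at and _a_at probe sets alone neither GLA (0.0057) nor MANBA (0.065) passed, and the median over probe sets put GLA at 0.33. GAA, the acid alpha-glucosidase, did not pass (0.01); it was lower at -0.20 with hybridization-control centring and higher at 0.17 with poly-A centring.

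Of the 4 sulfatases, ARSA (-0.28), ARSB (-0.25) and SGSH (-0.18), which remove sulfate from sulfatide or glycosaminoglycans, fell as deposited, and none of these calls held with poly-A centring (-0.12, -0.09 and -0.02). ARSA did not pass without control replicate 3 (-0.23) or MAP30 replicate 3 (-0.27), and with the median over probe sets neither ARSA (-0.19) nor SGSH (-0.14) passed. ARSB had probe sets from -1.02 to 0.16, a median over them of -0.12, and 0.0059 with _at and _a_at probe sets alone, where it did not pass. IDS, the iduronate sulfatase, read 0.01, -0.03 and 0.01 in control and -0.05, -0.09 and -0.01 with MAP30, an overlap, and did not pass. It passed as lower at -0.26 with hybridization-control and as higher at 0.11 with poly-A centring. Its mean of -0.05 covers 3 probe sets that fell (-1.10, -0.31 and -0.25), 2 that rose (0.56 and 0.76) and 1 at 0.03.

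Among enzymes of lipid breakdown, LIPA and PPT1 fell and SMPD1 rose. LIPA, the acid lipase that frees cholesterol and fatty acids from lipoprotein lipids, read 0.00, 0.04 and -0.04 in control and -1.37, -1.33 and -1.23 with MAP30 (2.48-fold lower, -1.31 ± 0.05 SE, adjusted p = 2.07e-07). PPT1, which strips palmitate from proteins, fell 2.38-fold, with all 6 probe sets lower. SMPD1, the acid sphingomyelinase that yields ceramide, read -0.03, -0.05 and 0.07 against 0.90, 0.83 and 0.69 (1.75-fold higher, 1 probe set, adjusted p = 1.25e-05). The groups of all 3 genes were well apart. ASAH1, the ceramidase that acts on the product of SMPD1, read 0.02, -0.02 and 0.00 against -0.63, -0.57 and -0.57 and fell by 0.59; 4 of its probe sets fell (-0.89 to -0.73) and 1 rose (0.28).

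**Figure D4:**
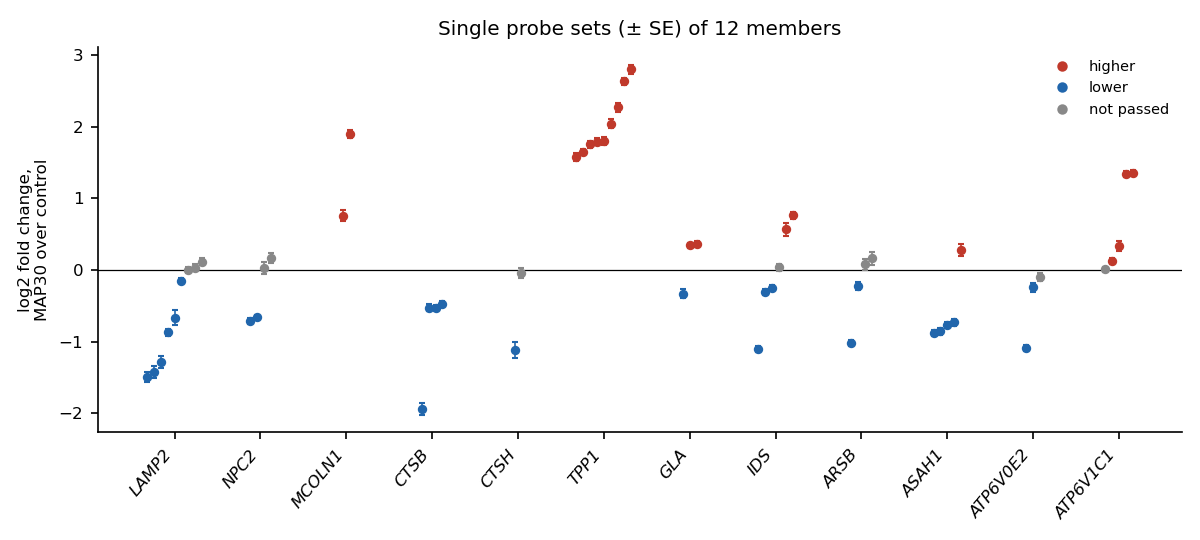
Log2 fold change ± SE (y axis) of each probe set of 12 genes whose probe sets differ in size or direction; colours give the call of the probe set. IDS and GLA hold probe sets called in both directions, as does ASAH1, where 4 lie at -0.89 to -0.73 and 1 at 0.28, whereas all 9 of TPP1 lie above 1.5.

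The V-ATPase genes moved upward in both parts of the pump. Of 13 V1 genes 9 rose (69.2%) and 1 fell (7.7%), and of 8 V0 genes 5 rose (62.5%) and 2 fell (25%). Over all genes 26.9% were higher and 30.6% lower, so the share of V0 genes that fell was near that of all genes. The 8 V0 genes leave out TCIRG1, the a3 isoform of subunit a, which fell by 0.52 and is counted with the accessory genes below. ATP6V1B2, the broadly expressed form of the nucleotide-binding B subunit, read -0.01, 0.00 and 0.00 in control and 1.44, 1.51 and 1.48 with MAP30, 2.78-fold higher (1.48 ± 0.03 SE, adjusted p = 4.08e-08). ATP6V1H, a regulatory V1 subunit, read -0.01, 0.03 and -0.02 against 0.96, 0.96 and 0.94, on 1 probe set (1.94-fold higher, adjusted p = 1.93e-07). ATP6V1E2, an isoform of the stalk subunit E known from testis, read -0.15, 0.04 and 0.11 against 0.86, 0.88 and 0.87 (1.83-fold higher, adjusted p = 1.07e-05). The groups did not overlap in these 3 genes.

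The remaining V1 rises were ATP6V1D (0.76), of the central rotor, the catalytic subunit ATP6V1A (0.63), ATP6V1C1 (0.63), ATP6V1E1 (0.56), ATP6V1G1 (0.38) and ATP6V1F (0.16). The last stood at -0.05 with hybridization-control centring and did not pass. For ATP6V1C1 the probe sets ran from 0.01 to 1.35, with a median of 0.33. In V0 the proteolipid ring genes ATP6V0B (0.81) and ATP6V0C (0.55), the subunit d gene ATP6V0D1 (0.64) and the subunit a genes ATP6V0A2 (0.72) and ATP6V0A1 (0.38) rose. Standard errors of these 11 genes were 0.03 to 0.05.

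The V-ATPase falls were small. ATP6V0E2 read 0.00, 0.01 and -0.01 in control and -0.41, -0.47 and -0.54 with MAP30 (1.39-fold lower, adjusted p = 2.43e-05), though its 3 probe sets ran from -1.09 to -0.09. With _at and _a_at probe sets alone it was at -0.093 and did not pass, and as the median over probe sets at -0.24. ATP6V0E1, the other form of subunit e, read 0.00, 0.01 and 0.00 against -0.23, -0.24 and -0.28 (1.19-fold lower), and with poly-A centring was at -0.09 and did not pass. In both the groups were apart. ATP6V1B1, the B isoform of kidney and inner ear, read -0.06, 0.02 and 0.05 against -0.08, -0.16 and -0.12 (-0.12 ± 0.04 SE, adjusted p = 0.0444), and this call was lost without control replicates 2 (-0.11) or 3 (-0.10) and without MAP30 replicates 2 (-0.10) or 3 (-0.12). ATP6V1B1 kept it in 5 of the 14 alternatives run, losing it also with array-median centring (-0.10), quantile normalization (-0.10), _at and _a_at probe sets and poly-A centring (0.042). ATP6V1G2 (0.09), ATP6V0D2 (0.07), ATP6V1G3 (-0.04) and ATP6V1C2 (-0.09) did not pass, the first of them passing at 0.12 without control replicate 3. With poly-A centring ATP6V1G2 (0.26), ATP6V0D2 (0.24) and ATP6V1G3 (0.12) passed as higher. With hybridization-control centring ATP6V1G3 (-0.25) and ATP6V1C2 (-0.30) passed as lower.

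In a grouping made after the values were seen, and so a description only, 14 V-ATPase genes encode subunits or isoforms known to be broadly expressed and 7 encode isoforms known mainly from particular tissues such as kidney, testis, brain or bone. Of the former 13 rose and 1, ATP6V0E1, fell, with a median of 0.63. Of the latter 1, ATP6V1E2, rose, ATP6V0E2 and ATP6V1B1 fell and 4 did not pass, with a median of -0.04. All genes were 26.9% higher and 30.6% lower. The restricted isoforms shifted with the scaling, as did all genes. With poly-A centring 4 were higher (57.1%, near the 49.1% of all genes) and 1 lower, beside 20.7% (median 0.12). With hybridization-control centring 1 was higher, beside 17.0%, and 4 lower (57.1%, near the 63.7% of all genes, median -0.25). The broad isoforms were 13 higher and 0 lower with the former, 1 not passing (13 had an unadjusted p below 0.05 in limma), and 12 higher and 1 lower with the latter. The centred values do not tell whether the tissue-restricted isoforms are expressed in T24 cells at all. For subunit B the 2 isoforms stood at 1.48 and -0.12, and for subunit C at 0.63 and -0.09. The a3 isoform gene of subunit a, TCIRG1, has a symbol outside the rule. It is in neither group, and it fell (-0.52).

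Other genes that serve the lysosome were read from separate lists. Their counts stand beside 26.9% of all genes higher and 30.6% lower as deposited, 17.0% and 63.7% with hybridization-control centring, and 49.1% and 20.7% with poly-A centring. Of 11 V-ATPase accessory and assembly genes 6 rose (54.5%) and 4 fell (36.4%). Centred on the hybridization controls 3 were higher and 4 lower, and on the poly-A controls 7 and 4. No test set this list against the subunits. The TLDc proteins OXR1 (0.75) and NCOA7 (0.53), which bind the pump, and DMXL1 (0.71), a factor of its assembly, rose. The accessory subunit gene ATP6AP2 (-0.96), TCIRG1 (-0.52), which encodes the a3 isoform of subunit a, and ROGDI (-0.38) fell. ATP6AP1 passed narrowly at 0.09 (adjusted p = 0.0425) and stood at -0.12 without passing under hybridization-control centring.

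Of 24 lysosomal enzyme genes outside the 28, most of them for hydrolases, 3 rose (12.5%) and 16 fell (66.7%). Their falls numbered 21 (87.5%) with hybridization-control and 15 (62.5%) with poly-A centring. The prenylcysteine oxidase gene PCYOX1 (-1.82), DNASE2 (-1.67), which degrades DNA, and the cathepsin gene CTSV (-1.56) fell most. Neither PCYOX1 nor the acetyltransferase gene HGSNAT (-0.50), also lower, encodes a hydrolase. GALC (0.71), ACP2 (0.62) and CTBS (0.61) rose. Soluble cofactor genes fell in 3 of 4: GM2A (-1.60), the activator that presents GM2 ganglioside for breakdown, CREG1 (-1.13) and GRN (-0.60), which encodes progranulin. Other membrane protein genes split into 10 higher and 11 lower of 28. OSTM1 (1.24), the partner of the chloride-proton exchanger CLCN7, CLCN6 (1.08) and PIP4P1 (0.93) rose, and the sialic acid exporter SLC17A5 (-0.99), LAPTM4B (-0.81) and LAPTM4A (-0.65) fell. With poly-A centring 14 were higher, a share near that of all genes, and 10 lower (35.7%). Under the hybridization controls 8 were higher (28.6%) and 18 lower (64.3%), the latter also near that of all genes.

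Hydrolases reach lysosomes through mannose 6-phosphate tags. Of 16 genes listed with this route 5 rose (31.2%) and 9 fell (56.2%). The list also holds SUMF1 (-0.59, lower), whose enzyme activates sulfatases and does not act on these tags. With hybridization-control centring 3 of the 16 were higher and 11 lower (68.8%, near the 63.7% of all genes), and with the poly-A controls 7 higher and 8 lower. GNPTAB, a subunit gene of the enzyme that makes the tag, was 2.17-fold lower (-1.12 ± 0.04 SE, adjusted p = 2.72e-07), and the adaptor genes AP1S1 (-1.24) and AP1M1 (-0.86) also fell. The receptor gene IGF2R was 1.81-fold higher (0.86 ± 0.04 SE), with AP1G1 (0.78) and GGA2 (0.67) higher too. The second receptor gene, M6PR, was at -0.05 and did not pass; with the hybridization controls as reference it was lower at -0.25 and with the poly-A controls higher at 0.12.

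Genes that dock mTORC1 at the lysosome and control TFEB-type factors were 10 higher and 6 lower of 19. FNIP1 (1.67), its partner FLCN (1.25), which act on RAG GTPases, RRAGB (1.64) and the Ragulator gene LAMTOR3 (1.28) rose, and RRAGD, a RAG gene known as a target of TFEB-type factors, rose by 0.46. LAMTOR2 (-0.78), PPP3CA (-0.73), a catalytic subunit gene of the phosphatase calcineurin, and NPRL2 (-0.73) fell. The other catalytic gene of calcineurin in the list, PPP3CB (0.99), and its regulatory gene PPP3R1 (0.38), named after their values were seen, rose. With the hybridization controls as reference the split was 10 higher and 9 lower, and with the poly-A controls 13 and 4.

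Of 22 genes of lysosome positioning and fusion 13 rose and 7 fell. VPS11 (1.48), a tethering subunit, PLEKHM1 (1.31), an adaptor of RAB7, and LYST (1.09) rose; the SNARE genes VTI1B (-0.98) and VAMP8 (-0.75) and RILP (-0.73) fell. With hybridization-control centring 7 were higher (31.8%) and 9 lower (40.9%), beside 17.0% and 63.7% of all genes, and with the poly-A controls 15 higher and 5 lower. Of 15 genes that sense or repair damaged lysosomes 9 rose and 4 fell. LGALS8 (1.54), a galectin that binds exposed glycans, PI4K2A (1.37), a lipid kinase of membrane repair, and TSG101 (0.88), of the ESCRT machinery, rose, and FBXO27 (-0.84), UBE2QL1 (-0.30) and OSBPL10 (-0.16) fell. Here the split was 7 and 6 with hybridization-control and 11 and 1 with poly-A centring.

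**Figure D5:**
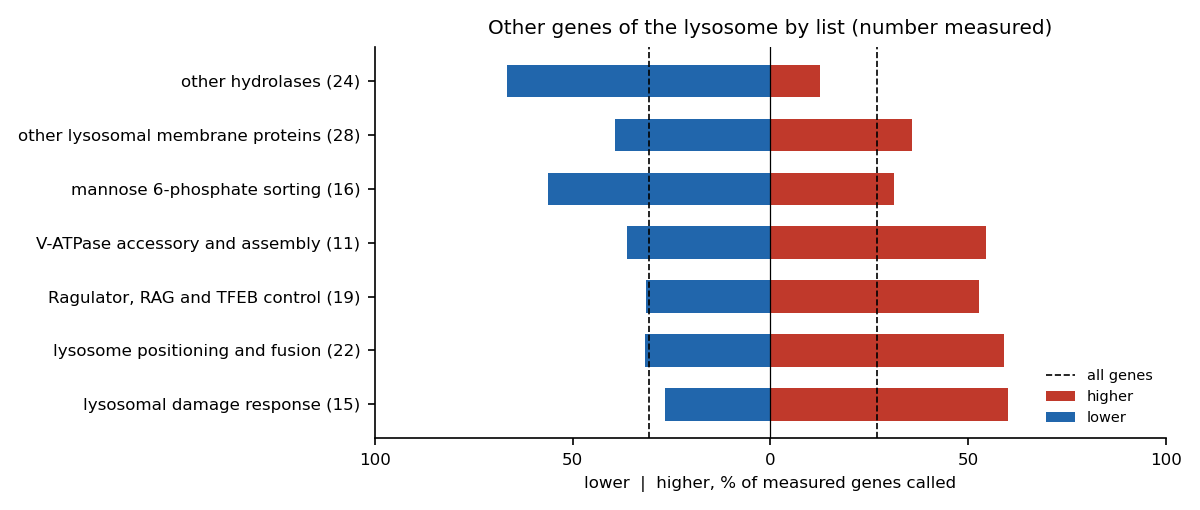
Share of the measured genes of 7 further lists called higher (red, to the right) or lower (blue, to the left) as deposited, in percent, with the number measured in brackets; dashed lines mark the shares over all genes, 26.9% and 30.6%. The list labelled other hydrolases, which also holds PCYOX1 and HGSNAT, genes of an oxidase and an acetyltransferase, extends farthest to the lower side (66.7%). Those of lysosome positioning and of damage response extend farthest to the higher side (the former 59.1%).

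Markers of cells rich in lysosomes were set beside these values. Of 10 leukocyte markers ITGAM (2.76) and CD163 (1.09) were higher and CD14 (-0.26) lower, while PTPRC, the defining pan-leukocyte gene, was at 0.03 and did not pass; 7 of the 10 did not pass. Centred on the hybridization controls 2 were higher and 7 lower, beside 17.0% and 63.7% of all genes, and on the poly-A controls 7 higher, beside 49.1%. Of 4 osteoclast genes CTSK (-0.83) and OSCAR (-0.79) were lower; with hybridization-control centring all 4 were, and with the poly-A controls 2 were lower and 1 higher. Of 10 urothelial markers GATA3 (2.12) and EPCAM (0.96) were higher and KRT7 (-1.03) and KRT8 (-0.47) lower; with hybridization-control centring 2 were higher and 6 lower, and with the poly-A controls 3 and 2. The centred values give no level with which to check the labelled cell type, and the part of these genes in the results was not tested.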

How the data were processed

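RNA was amplified by the 3' method, labelled with biotin and hybridised to 6 Affymetrix arrays, per the labels' protocols. The authors deposited log2 values for 49395 probe sets, each centred on its median over the arrays (0 to within 5e-07); RMA and MAS5 are named in the submitters' processing notes, with no role for either. The sources used here give no base of the logarithm; it was taken as 2, and every fold change rests on that. Precision is limited by the number of arrays.

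Probe sets with exactly 1 symbol in the platform annotation (44988; 1832 had several, 2473 none and 102 were controls) were averaged per gene. MAP30 was compared with control over all 18132 genes by limma 3.58.1 in R 4.3.3 (lmFit, eBayes, two-sided, Benjamini-Hochberg, threshold 0.05), and probe sets likewise. No filter on dim genes was possible in centred values. Tables and figures used Python 3.11.15, pandas 2.3.3 and matplotlib 3.10.9.

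The genes, lists and classes were chosen with earlier results of these data known. All 61 genes are reported. Values per array are given for up to 3 genes with the largest rise and the largest fall of each class that passed with groups apart, for the regulators, and for genes whose probe sets opposed each other. Of other lists up to 3 genes each way are named, with TCIRG1, ATP6AP1, ATP6AP2, IGF2R, M6PR, FLCN and RRAGD. SUMF1 and HGSNAT are named for what they encode. Some genes of the lists are not reported here.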

Additional observations from a re-analysis of the deposited data

How the results depend on the processing

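Over 14 alternatives, 39 of the 61 genes kept their call in every one run, all of them called higher or lower; 7 changed their call when 1 array was left out. With hybridization-control centring, 5 hydrolase genes were higher and 5 V-ATPase genes lower, and the class medians were -0.48 for hydrolases, -0.39 for membrane proteins and 0.34 for V-ATPase genes. LAMP1 (-0.18), PSAP (-0.17), CTSA (-0.043), GAA (-0.20), GLA (-0.085), MANBA (-0.077), NAGLU (-0.039) and ATP6V1F (-0.052) changed sign, as did TFEB (-0.086), ATP6V0D2 (-0.13) and ATP6V1G2 (-0.12). With poly-A centring 1 V-ATPase gene was lower, the medians were -0.10, -0.020 and 0.72 in the same order, and IDS (0.11), ATP6V1B1 (0.042), ATP6V1C2 (0.076) and ATP6V1G3 (0.12) changed sign. Using only _at and _a_at probe sets, which leaves 23 of the hydrolase and 20 of the V-ATPase genes measured, 5 hydrolase genes were higher and 1 V-ATPase gene lower, the medians were -0.22, -0.20 and 0.49, and ARSB (0.0059), PSAP (-0.050) and IDS (0.0020) changed sign without passing. The median over probe sets gave -0.22 for hydrolases and 0.42 for V-ATPase genes, quantile normalization -0.16 for membrane proteins and array-median centring 0.57 for V-ATPase genes. Means in place of medians were -0.22, 0.12 and 0.41. With 1 array left out, hydrolase genes were 6 to 9 higher, and the medians ran from -0.30 to -0.24 for hydrolases and from 0.54 to 0.56 for V-ATPase genes. Beyond the change that a shift of scale or fewer probe sets makes by construction, the cause was not tested.

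Arrays of the same number did not deviate together (correlations of -0.04, 0.07 and 0.01 over all genes). Those of different numbers ran from -0.13 to 0.11. With so few arrays these values cannot decide whether the numbers pair the samples, and no pairing was used in the main fit. With a replicate block 27 genes were higher and 24 lower; GLA and ATP6V1B1 no longer passed and TFEB did. Filters on dim probes were not run, since centred values carry no level.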
